A study of Homo sapiens with 48 samples.

Results

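The nuclear pore and nuclear transport genes examined here are 39 listed genes, the nucleoporins that build the pore and the receptors and Ran proteins that move cargo through it. Members were taken as every array probe whose platform gene symbol, or an older alias of it, is a listed gene, and different probes of a gene were kept apart. This gave 58 probes of 48803 on the array, for 38 of the 39 genes (the array names 18852 gene symbols in all). SEC13 has no probe named here and was not analysed. Of the 38 genes, 25 have 1 probe and 13 have several, which are numbered p1, p2 and so on.

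Illumina bead arrays read transcript levels in cells of the hepatoma line Huh7 and in THP1 cells, which come from a monocytic leukaemia. Cells received the siRNA INTG, directed against a transcript between the genes C5 and TRAF1, or 1 of 2 negative control siRNAs, NC1 and NC2 (Silencer Select Negative Controls #1 and #2). Per the labels, 300000 cells in a well of a 6-well plate received 50 pmol siRNA with a Lipofectamine reagent, and all groups in both lines were harvested after 2 days. Each line had 4 experiments, each on its own culture passage with 2 wells per siRNA, so that 48 arrays gave 8 per group. Groups were thus INTG, NC1 and NC2 in Huh7 and INTG, NC1 and NC2 in THP1, with no untransfected cells analysed. Wells of an experiment were averaged and n counts experiments (n = 4 per group). The level of the targeted transcript was not analysed here, so how far INTG lowered it is not known from these values. A single INTG siRNA was used, and the effect of the loss of its target cannot be told apart from other effects of that siRNA.

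The nuclear pore complex is a ring-shaped assembly in the nuclear envelope, built from outer rings (the Y complex), an inner ring, a membrane part, a central channel lined with flexible repeats, cytoplasmic filaments and a nuclear basket. Importins carry cargo inward and exportins carry it outward. Direction is set by the small GTPase RAN, kept in its GTP form inside the nucleus by the chromatin-bound exchange factor RCC1. Importin alpha proteins, made by the KPNA genes, bind the classical import signal of a cargo and join it to importin beta (KPNB1).

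The siRNA sequence in the labels and the promoters of the 2 genes that changed most with INTG are shown first. The target region lies between C5 and TRAF1 on chromosome 9, and the labels give 21 bases.
INTG target: AACTACGTGAAGAGGCCTCTG
KPNA3 and SEH1L had the largest falls among the members in Huh7. Their promoters, from 250 bases before to 50 after the annotated start, are given 5′ to 3′ in the direction of transcription, from RefSeq on GRCh38.p14. KPNA3 lies at chr13:49792633-49792932 on the minus strand and SEH1L at chr18:12947761-12948060 on the plus strand. Capitals mark matches, on either strand, to the GC box GGGCGG, the E box CACGTG or the ETS core CCGGAAG.
KPNA3 promoter: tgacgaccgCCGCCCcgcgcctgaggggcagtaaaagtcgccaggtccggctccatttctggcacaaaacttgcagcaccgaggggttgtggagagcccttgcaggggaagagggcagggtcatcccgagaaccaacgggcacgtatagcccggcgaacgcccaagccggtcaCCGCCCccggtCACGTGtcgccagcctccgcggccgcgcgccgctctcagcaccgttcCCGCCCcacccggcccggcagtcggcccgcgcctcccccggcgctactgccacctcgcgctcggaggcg
SEH1L promoter: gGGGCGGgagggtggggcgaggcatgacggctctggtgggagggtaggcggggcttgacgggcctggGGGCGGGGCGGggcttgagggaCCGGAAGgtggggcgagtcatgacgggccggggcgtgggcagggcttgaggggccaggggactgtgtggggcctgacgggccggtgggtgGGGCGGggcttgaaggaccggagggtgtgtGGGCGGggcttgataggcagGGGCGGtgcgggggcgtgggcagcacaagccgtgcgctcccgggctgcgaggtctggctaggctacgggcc
In these windows KPNA3 held 3 GC boxes and 1 E box, and SEH1L held 6 GC boxes, of which 1 pair overlaps in part, and 1 ETS core. The GC content was 72% for KPNA3 and 75.7% for SEH1L. Among all 35116 promoters of the same length, 45% held a GC box, 7.26% the E box and 10.3% the ETS core. Promoters were found for 33 of the members (42 promoters). Of these 47.6% held a GC box, 16.7% the E box and 21.4% the ETS core. The CCAAT box (CCAAT) was in 42.9% of member promoters and 34.6% of all, and the NRF1-type motif GCATGCGC in 11.9% and 3.05%. Neither printed window holds these last motifs. Letter matches describe the windows and are not evidence of binding.

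Huh7 carried the markers of its label, and THP1 carried part of them. Of the hepatocyte markers, ALB, AFP, APOA1, APOB, TF, TTR, FGB and SERPINA1 each had a probe detected on all 24 Huh7 arrays, and no probe of these genes was detected on more than 2 of 24 THP1 arrays. The monocyte genes SPI1 and CSF1R were detected on 0 Huh7 and 24 THP1 arrays, and ITGAM on 0 Huh7 and 18 THP1 arrays. PTPRC was on 0 Huh7 arrays and on 12 THP1 arrays at most. CD68 was detected in both lines and was higher in THP1 at each probe. CD14 p2 and LYZ p1, also monocyte markers, were higher in Huh7, at 7.02 in Huh7 and 5.94 in THP1 for CD14 p2 and at 10.08 in Huh7 and 7.60 in THP1 for LYZ p1. The 2 INTG arrays of THP1 experiment 4 stood apart: their mean signal was 0.462 times that of the controls of that experiment, and they detected a mean of 8685.5 probes, against 11292.5 with NC1 and 11721.5 with NC2. In THP1 experiments 1 to 3 this ratio was 0.983, 0.986 and 1.06. In Huh7 it was 1.02, 0.798, 0.738 and 0.819 in experiments 1 to 4. Calls of INTG effects on members in THP1 are given with and without the dim arrays, as are the differences of KPNA3 and SEH1L. Counts of THP1 probes on 1 side of both controls are given with all arrays only. Each slide of 12 arrays held 1 line and 1 phase (experiments 1 and 2, or 3 and 4), and array positions on a slide followed the siRNA, so that position and siRNA cannot be told apart.

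Of the 58 member probes, 50 were tested in each line, that is, had a detection p-value under 0.01 on at least 8 of its 24 arrays. These stand for 36 genes in each line, and 49 probes were tested in both. All 24 Huh7 arrays detected 43 of the probes and all 24 THP1 arrays detected 35. Neither line passed KPNA5 (0 Huh7 and 5 THP1 arrays), an importin alpha, or RANBP2 (0 Huh7 arrays and 1 THP1 array), the large nucleoporin of the cytoplasmic filaments. In all 7 probes were tested in neither line, which adds NUP50 p1, NUP98 p1, RAE1 p3, TNPO1 p1 and TPR p2, whose genes have another probe that was tested. NUP50 p2 (2 Huh7 and 18 THP1 arrays) was tested only in THP1 and RCC1 p2 (11 Huh7 and 3 THP1 arrays) only in Huh7.

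Values below are background-corrected and quantile-normalized signals on the log2 scale, on which a difference of -1 is 0.5 times the level; an offset added before the log understates changes of dim probes. Differences were tested with limma over all probes of a line and adjusted by Benjamini-Hochberg.

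In Huh7, KPNA3 and 2 of the 3 SEH1L probes were lower with INTG by over 1 on the log2 scale, and few other members changed. Limma called 8 of 50 member probes at an adjusted p under 0.05, of 6 genes. Of these probes 7 were lower with INTG (KPNA3, SEH1L p1 and p2, RCC1 p1 and p3, NUP188 and NUP210) and 1 was higher (IPO7). Over all 13878 probes tested, 22.3% were called, 12% lower and 10.3% higher, against 16% of the members, 14% lower and 2% higher. The members' median difference was 0.01, as was that of all probes, and the median size of the difference was 0.11 for members and 0.13 for all. The members' share of calls is not above that of all probes, and the changes described next are those of single genes. On arrays of whole wells, fewer cells with a transcript and less of it per cell cannot be told apart.

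KPNA3, importin alpha 4, binds the classical import signal and had 1 probe (ILMN_1708427). In Huh7 its normalized log2 signal was 7.51, 6.81, 6.08 and 6.65 in experiments 1 to 4 with INTG, against 8.27, 8.03, 7.96 and 7.92 with NC1 and 8.16, 7.91, 7.64 and 7.91 with NC2. The highest INTG value lay below the lowest control value, and the INTG values spread more (SD 0.59, n = 4) than those of NC1 (SD 0.16, n = 4) or NC2 (SD 0.21, n = 4). The fitted difference, INTG minus the average of its controls, was -1.21 ± 0.12 (SE) on the log2 scale, 0.432 times the control level (limma, adjusted p = 8.48e-05). The difference was -1.28 against NC1 and -1.14 against NC2. By experiment the KPNA3 difference was -0.70, -1.16, -1.72 and -1.26, so that its size varied while its direction held. The smallest fall came from experiment 1, the experiment in which INTG and control arrays were about equally bright. The part of array brightness in this variation was not tested.

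**Figure D1:**
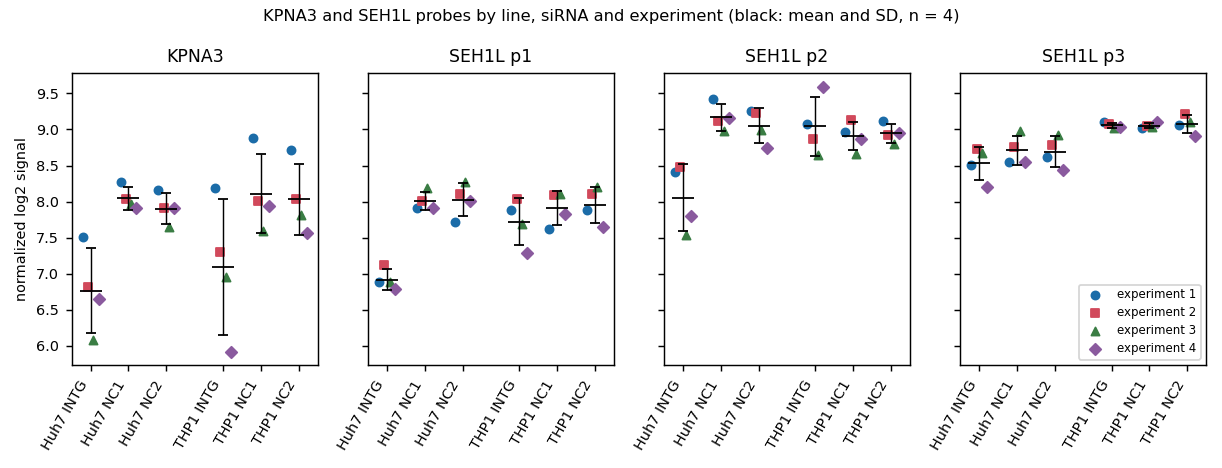
Normalized log2 signal of the KPNA3 probe and the 3 SEH1L probes in each experiment (coloured symbols), with mean and SD over 4 experiments in black, for INTG, NC1 and NC2 in Huh7 and then THP1. In Huh7 the INTG points of KPNA3, SEH1L p1 and SEH1L p2 lie below all control points, those of SEH1L p3 overlap the controls, and in THP1 only KPNA3 is below both controls in every experiment.

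SEH1L, a subunit of the Y complex that also belongs to the GATOR2 complex of nutrient signalling, had 3 probes that did not move alike. Probe p1 (ILMN_1705032) measured 6.88, 7.12, 6.88 and 6.79 with INTG, against 7.91, 8.0, 8.19 and 7.92 with NC1 and 7.72, 8.10, 8.27 and 8.0 with NC2. All 4 INTG values sat within a narrow band well under the controls. Probe p2 (ILMN_1708619) measured 8.41, 8.47, 7.54 and 7.80 with INTG, against 9.42, 9.11, 8.98 and 9.16 with NC1 and 9.25, 9.23, 8.99 and 8.74 with NC2. Here too the groups did not overlap. The differences were -1.10 ± 0.08 (SE) for p1 (adjusted p = 1.61e-05) and -1.06 ± 0.11 for p2 (adjusted p = 0.000103), or 0.467 and 0.481 times the control level.

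Probe p3 of SEH1L (ILMN_2381138) differed by only -0.17 ± 0.07 (SE, adjusted p = 0.090), although it was below both controls in each experiment. Its 95% interval, -0.32 to -0.02, does not reach the changes of p1 or p2. The array annotation gives p3 and p2 the same transcript, NM_001013437, and p1 another, NM_031216. All 3 probes were detected on all 24 Huh7 arrays. Where each probe lies along the transcripts was not analysed here, so the discordance is reported without an account of it.

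Among the rest of the Y complex, which shapes the outer rings, no probe passed the threshold. NUP107 (0.19, adjusted p = 0.052) and NUP43 (0.25, adjusted p = 0.158) had the highest differences, and NUP133, NUP160, NUP37 and NUP85 lay between 0.01 and 0.07. Y complex calls came to 2 of 9 probes, both of SEH1L. In the inner ring, which joins the outer rings to the membrane, NUP188 fell by 0.27 (SE 0.08, adjusted p = 0.025) and was the only one of 5 probes called. INTG values of NUP188 were 8.90, 8.66, 8.64 and 8.73, against 9.03, 9.12, 8.77 and 9.06 with NC1 and 9.21, 9.15, 8.65 and 9.03 with NC2. In experiment 3 it was level with NC2, so most of the fall came from the other experiments. NUP155, NUP205 and NUP93, also of the inner ring, lay between -0.09 and 0.08.

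NUP210, a glycoprotein that spans the pore membrane, fell by 0.28 (SE 0.07, adjusted p = 0.020). It measured 7.98, 8.33, 7.68 and 8.29 with INTG, against 8.01, 8.59, 8.25 and 8.60 with NC1 and 8.13, 8.59, 8.05 and 8.64 with NC2. The differences between experiments were larger than the fall, which was seen within each experiment. In the central channel, no probe of NUP54 or NUP62 was called (0 of 4, from -0.01 to 0.26). The 7 probes on the cytoplasmic side and in mRNA export (AAAS, NUP214, NUP88, NUP98 and RAE1) lay between -0.35 and 0.06. NUP98, which docks export factors on both faces of the pore, had the lowest of them, with p3 at -0.35 (adjusted p = 0.064) and p2 at -0.19 (adjusted p = 0.076). For NUP98 p3 the difference was -0.88 in experiment 4 and no lower than -0.28 in the other experiments. The basket proteins NUP153, NUP50 and TPR, which anchor the nuclear side, gave 0 of 3 probes called (from -0.02 to 0.13).

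KPNA3 was the only importin alpha probe of 6 called. Its close paralogue KPNA4 was above both controls in all 4 experiments, with a difference of 0.17 that did not pass the test (adjusted p = 0.127). KPNA1 and KPNA6 gave -0.09 and -0.02. KPNA2, the importin alpha of dividing cells, gave 0.30 at p1 (adjusted p = 0.056) and 0.05 at p2. Of 6 importin beta probes, only IPO7 was called, a receptor for ribosomal proteins and other cargo. IPO7 measured 8.70, 8.97, 7.92 and 8.05 with INTG, against 8.57, 8.71, 7.81 and 8.06 with NC1 and 8.52, 8.61, 7.54 and 7.63 with NC2. INTG was higher by 0.23 ± 0.07 (SE, adjusted p = 0.038), but the rise was 0.33 against NC2 (adjusted p = 0.018) and 0.12 against NC1 (adjusted p = 0.340). KPNB1, the main importin beta, lay at 0.11, and IPO5 and the 3 tested probes of the transportin TNPO1 lay between -0.19 and 0.12. The exportins XPO1, which carries leucine-rich export signals, and CSE1L, which returns importin alpha to the cytoplasm, gave 0 of 3 (from -0.04 to 0.18).

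In the Ran cycle, both calls of 6 probes were of RCC1, on chromosome 1. Probe p3, annotated to the mRNA NM_001269, measured 5.79, 6.29, 7.16 and 5.79 with INTG, against 6.31, 6.82, 7.65 and 6.54 with NC1 and 6.07, 6.77, 7.66 and 6.10 with NC2. Within each experiment INTG was lowest, while the level of the probe itself shifted between experiments by more than the INTG difference. That difference was -0.48 ± 0.07 (SE, adjusted p = 0.00102), or 0.717 times the controls, and by experiment it was -0.40, -0.50, -0.50 and -0.53. RCC1 p1, annotated to a transcript the RefSeq table used here does not list, was lower by 0.20 (SE 0.06, adjusted p = 0.035), with -0.22, -0.14, -0.23 and -0.21 by experiment. RCC1 p2, detected on 11 of 24 Huh7 arrays, gave -0.10 (adjusted p = 0.464). RAN itself was 0.20 higher (adjusted p = 0.051) and above both controls in all 4 experiments, and the RAN-binding cofactor RANBP1 gave -0.11 at p1 and 0.08 at p2.

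**Figure D2:**
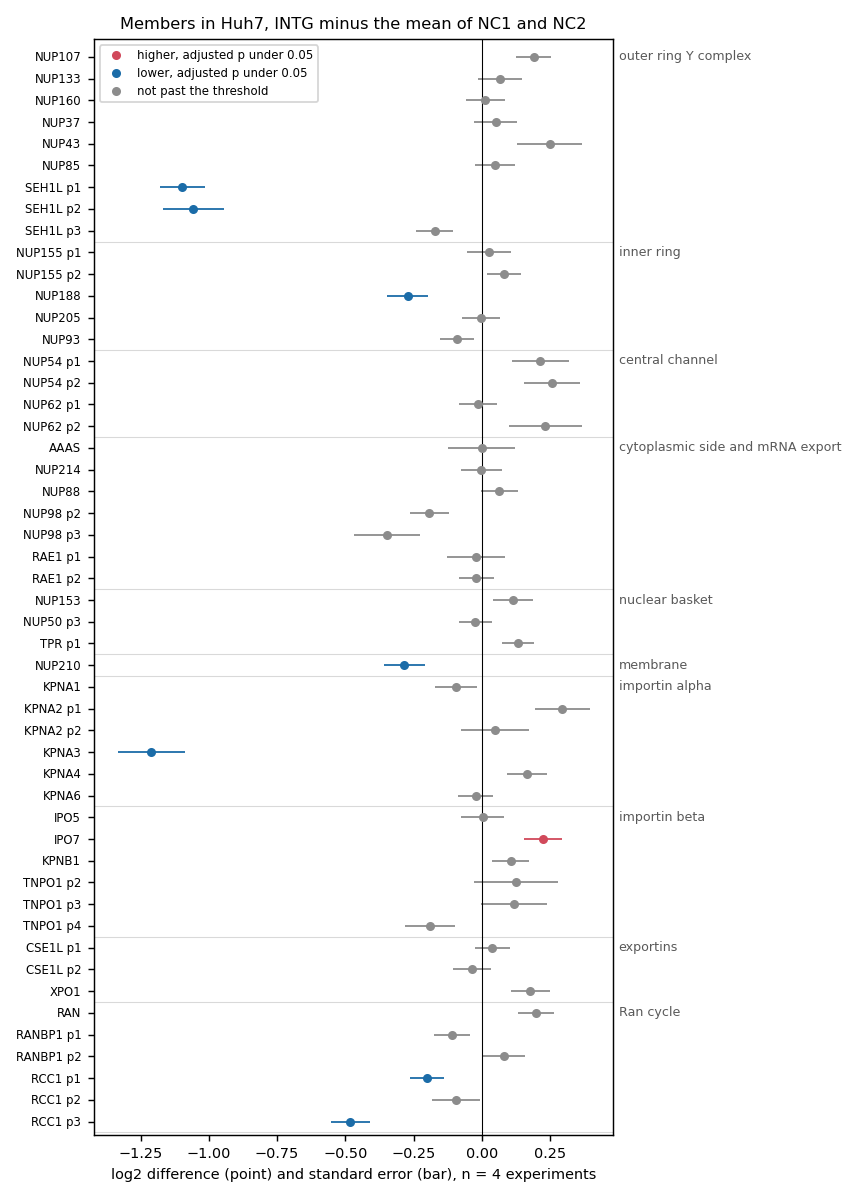
INTG minus controls (NC1 and NC2 averaged) on the log2 scale for each of the 50 member probes tested in Huh7, grouped by role, with the fitted difference as a point and its standard error as a bar (n = 4 experiments). KPNA3, SEH1L p1 and SEH1L p2 lie between -1.21 and -1.06, and every other probe lies between -0.48 and 0.30.

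For 12 of the 50 members, INTG in Huh7 was below both controls in every experiment or above both in every experiment, against 22.7% of all probes. Of these, 9 were below (KPNA3, NUP188, NUP210, NUP98 p2, RCC1 p1 and p3, and SEH1L p1, p2 and p3; 12% of all probes were below) and 3 above (KPNA4, RAN and TPR p1; 10.7% of all). Set against NC1 alone, 7 members were called (18.5% of all probes), 6 lower (10.2% of all) and NUP107 higher (8.32% of all). Against NC2 alone 5 were called (16% of all probes), 4 lower (9.14% of all) and IPO7 higher (6.82% of all). KPNA3, SEH1L p1, SEH1L p2 and RCC1 p3 were lower in both of these comparisons, which share the INTG arrays. With array brightness as a covariate, with no term for the experiment or with the slide as the only block, 3 members were called each time, KPNA3, SEH1L p1 and SEH1L p2. For these alternatives the share of all probes called is not given here. The brightness of INTG arrays fell below that of controls in experiments 2 to 4, and its part in the smaller changes of RCC1, NUP188, NUP210 and IPO7 was not tested beyond that fit.

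In THP1 no member passed the threshold with all arrays (0 of 50, where 0.0444% of all 13524 probes were called and limma gave 4 members an unadjusted p under 0.05, KPNA3, KPNA6, NUP54 p2 and RAN). KPNA3 nevertheless had the lowest difference, -0.98 ± 0.20 (SE, adjusted p = 0.174). Its values were 8.19, 7.31, 6.96 and 5.91 with INTG in experiments 1 to 4, against 8.89, 8.01, 7.59 and 7.94 with NC1 and 8.71, 8.03, 7.82 and 7.57 with NC2. The probe was detected on 7 of 8 INTG arrays and on all control arrays. INTG was below both controls within each experiment, but the groups overlapped across experiments, and all groups were highest in experiment 1. The differences by experiment were -0.60, -0.71, -0.75 and -1.84, of which the last comes from the dim arrays.

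Without the 2 dim arrays KPNA3 was lower by 0.69 in THP1 (SE 0.10), or 0.620 times the controls, and limma called it (adjusted p = 0.034). It was then the only member called of 50, against 0.266% of all probes. Leaving out experiment 4 altogether gives the same difference by construction, since its controls alone do not inform this contrast. The adjusted p in limma was then 0.033, with 1 of 50 members called against 0.14% of all probes. Against single controls, without the dim arrays, KPNA3 differed by -0.73 from NC1 (adjusted p = 0.0496, the only member called, against 0.17% of all probes) and by -0.65 from NC2 (adjusted p = 0.0999, 0 of 50 members called with 7 at an unadjusted p under 0.05 in limma, against 0.0887% of all probes). The call against NC1 was lost with experiment 4 left out (-0.68, adjusted p = 0.0680), where 0 of 50 members were called, 5 had an unadjusted p under 0.05 in limma and 0.0148% of all probes were called. The fall of KPNA3 in THP1 experiments 1 to 3 thus does not rest on the dim arrays, while its size over all 4 experiments does in part.

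SEH1L did not repeat its Huh7 pattern in THP1. With INTG minus controls by experiment, p1 gave 0.13, -0.06, -0.47 and -0.45, p2 gave 0.03, -0.16, -0.09 and 0.68, and p3 gave 0.06, -0.06, -0.05 and 0.03. No probe of SEH1L kept 1 sign. Fitted differences of SEH1L were -0.21, 0.12 and -0.01, with 95% intervals from -0.48 to 0.05, from -0.20 to 0.43 and from -0.16 to 0.14, and without the dim arrays they were -0.13, -0.07 and -0.02. RCC1 p3 differed by 0.06, -0.23, 0.29 and -0.03, with INTG on no constant side of the controls.

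In THP1 only KPNA3 was below both controls in every experiment (6.34% of all probes) and only RAN above both (2.51% of all), so that 2 of 50 kept a side, against 8.84% of all probes. RAN differed by 0.13, 0.12, 0.13 and 0.34 in THP1 and by 0.22, 0.26, 0.12 and 0.19 in Huh7, the only member above both controls throughout in each line, yet it passed the test in neither (adjusted p = 0.373 in THP1, or 0.439 without the dim arrays, and 0.051 in Huh7). The THP1 median was -0.03 for the members and -0.07 for all probes with all arrays, and -0.007 and 0.002 without the dim arrays. In experiment 4 of THP1, 12 of the 50 members (24%) differed by more than 0.5, against 44.9% of all probes, and the members' median was -0.05, against -0.28 for all probes. In experiments 1 to 3 only KPNA3 differed by more than 0.5 (2% of the members in each), against 0.377%, 1.32% and 7.75% of all probes. In Huh7 3, 6, 5 and 6 members did so in experiments 1 to 4, against 3.87%, 12.4%, 13.0% and 11.6% of all probes.

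**Figure D3:**
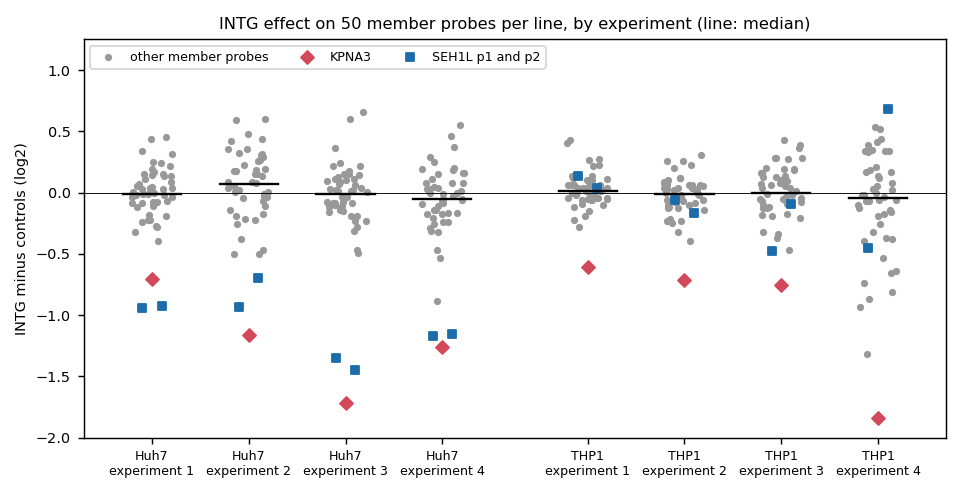
INTG minus controls (NC1 and NC2 averaged) on the log2 scale for the 50 member probes tested in each line, by experiment, with the members' median as a black line. KPNA3 lies at -0.60 or lower in all 8 experiments, SEH1L p1 and p2 lie at -0.70 or lower in Huh7 only, and the members spread widest in THP1 experiment 4, which holds the dim arrays.

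Whether the INTG effect differed between lines was tested directly on the 49 member probes measured in both. Limma called 3 of them, all with a lower value in Huh7, against 2.6% of all 11542 probes (1.55% lower). SEH1L p2 gave -1.17 ± 0.19 (SE, adjusted p = 0.00477), SEH1L p1 -0.88 ± 0.14 (adjusted p = 0.00515) and RCC1 p3 -0.50 ± 0.12 (adjusted p = 0.038), each as the Huh7 effect minus the THP1 effect. Without the dim arrays the same probes were called (background 4.53%), at -0.98, -0.96 and -0.52. For KPNA3 the difference between lines was -0.23 (95% interval -0.76 to 0.30, adjusted p = 0.619), and without the dim arrays -0.52 (95% interval -0.89 to -0.15, adjusted p = 0.106). Its fall was therefore not shown to differ between lines, and the intervals do not show that it was equal. With no term for the experiment 0 of the 49 were called, and leaving out experiment 3 of both lines also left 0. The share of all probes called in those fits is not given here. RCC1 p3 lost this call in 8 of 14 alternatives, and the SEH1L probes in 3 each.

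**Figure D4:**
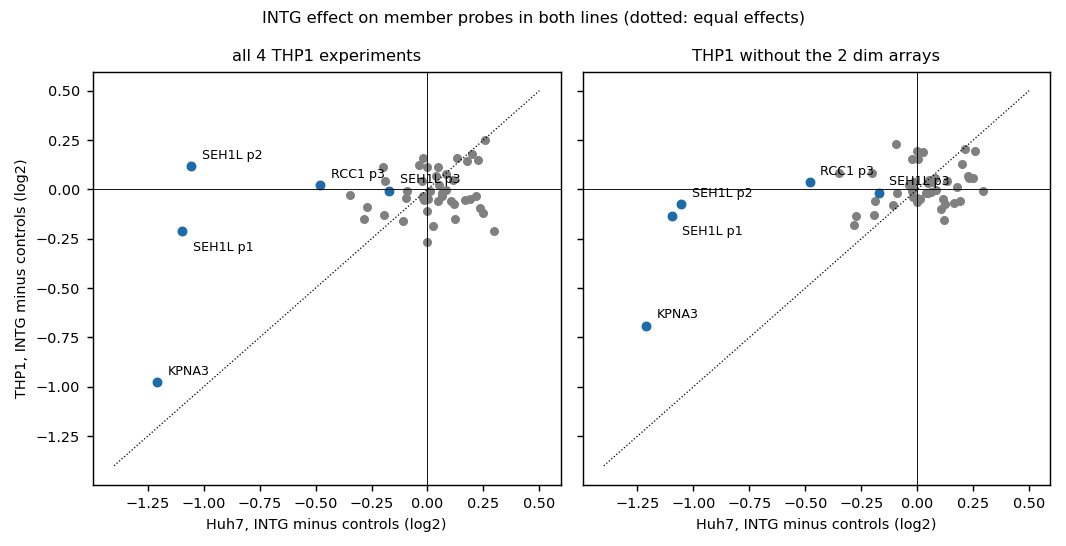
INTG minus controls on the log2 scale for the 49 member probes tested in both lines, Huh7 on the horizontal axis and THP1 on the vertical axis, with all THP1 arrays at left and without the 2 dim arrays at right (dotted line: equal effects). KPNA3 lies at the lower left in both panels (-1.21 in Huh7, and -0.98 or -0.69 in THP1), while SEH1L p1 and p2 are near -1.1 in Huh7 and between -0.21 and 0.12 in THP1.

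The 2 control siRNAs were then set against each other as the background of these comparisons. No member was called for NC2 minus NC1 in Huh7 (0 of 50, with 0.476% of all probes called and 4 members at an unadjusted p under 0.05 in limma) or in THP1 (0 of 50, with 0% of all probes called and 3 members at an unadjusted p under 0.05). Differences of members ran from -0.48 to 0.19 in Huh7 and from -0.38 to 0.23 in THP1. The lowest in Huh7 was NUP62 p2 (-0.48, adjusted p = 0.273), a probe of the central channel protein NUP62. KPNA3 differed by -0.14 between the controls in Huh7 (95% interval -0.46 to 0.17), and SEH1L p1 and p2 by 0.02 and -0.11. IPO7 differed by -0.21 (adjusted p = 0.375), a difference between controls about as large as its rise with INTG.

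With control siRNAs alone, NUP62 p2, NUP155, NUP210 and NUP50 p3 had a lower signal in Huh7 than in THP1, and KPNA6 and NUP98 p2 a higher one. Of 51 member probes tested in either line, limma called 21 (41.2%) between Huh7 and THP1, against 62.6% of 15860 probes. Of the 51, 49 were tested in both lines, as were 11542 of the 15860. Probes that passed the filter in 1 line only can raise the share and median size over all probes, so these are not an even background. The 21 called and the 15 lower include NUP50 p2, which passed only through THP1. The median size of the difference was 0.36 for the members and 0.69 for all probes. Of the called probes 15 were lower in Huh7 (29.4% of the members, 31.9% of all) and 6 higher (11.8% of the members, 30.6% of all), so that the share of lower calls is near the background. Each slide held 1 line, so the line and the slide cannot be told apart. With slide as a random block 13 members were called, with median scaling 5, none of them higher in Huh7, and with the authors' values 0. The share of all probes called in these fits is not given here, and the cause was not tested.

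NUP62 p2 averaged 6.03 ± 0.12 in Huh7 and 7.36 ± 0.26 in THP1 (SD, n = 4 each), a difference of -1.33 (adjusted p = 4.4e-05), while NUP62 p1 differed by -0.44 without passing (adjusted p = 0.074). NUP155 of the inner ring was lower at both probes, with 9.65 ± 0.36 in Huh7 and 10.96 ± 0.22 in THP1 at p2 (-1.31) and -1.05 at p1. NUP210 averaged 8.36 ± 0.29 in Huh7 and 9.61 ± 0.29 in THP1 (SD, n = 4 each), a difference of -1.26. The groups did not overlap at NUP62 p2, NUP155 p2 or NUP210. NUP50, a basket protein that helps release imported cargo, averaged 8.49 ± 0.20 in Huh7 and 9.72 ± 0.07 in THP1 at p3 (-1.23, adjusted p = 2.73e-05). NUP50 p2 entered this test only through THP1 (detected on 2 Huh7 and 18 THP1 arrays), so that its call carries no weight of its own and no size is given. NUP62 p2, NUP155 p2, NUP210 and NUP50 p3 kept their call with the slide as a random block and with median scaling, but not with the authors' values.

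The other members lower in Huh7 were RCC1 p1 (-0.92), AAAS (-0.88), NUP85 (-0.85) and NUP160 (-0.67) of the Y complex, NUP93 of the inner ring (-0.76), KPNB1 (-0.37), SEH1L p3 (-0.36) and TNPO1 p2 and p4 (-0.86 and -0.82). AAAS makes aladin, a nucleoporin of the cytoplasmic side. NUP160, KPNB1, SEH1L p3, TNPO1 p2 and NUP155 p1 lost the call with slide as a random block. Members higher in Huh7 were KPNA6 (0.83), KPNA1 (0.45), NUP98 p2 (0.76), the mRNA export factor RAE1 at p2 (0.34) and CSE1L at p2 and p1 (0.49 and 0.32). KPNA6 averaged 10.47 ± 0.47 in Huh7 and 9.64 ± 0.27 in THP1 (SD, n = 4 each). KPNA1, RAE1 p2 and CSE1L p1 lost the call with slide as a random block. None of the higher calls, KPNA6 and NUP98 p2 included, held with median scaling. With the authors' values no call held, higher or lower.

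KPNA3 and the 2 SEH1L probes that fell with INTG were not called between the lines under control siRNAs. KPNA3 averaged 7.97 ± 0.17 in Huh7 and 8.07 ± 0.50 in THP1 (SD, n = 4 each), a difference of -0.10 (95% interval -0.63 to 0.44). SEH1L p1 averaged 8.01 ± 0.17 in Huh7 and 7.93 ± 0.22 in THP1, and SEH1L p2 averaged 9.11 ± 0.18 in Huh7 and 8.93 ± 0.14 in THP1. Line and slide cannot be told apart at these 3 probes either, and the part of the starting level in the INTG effect was not tested. Other members without a call lay between -0.57 and 0.46.

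**Figure D5:**
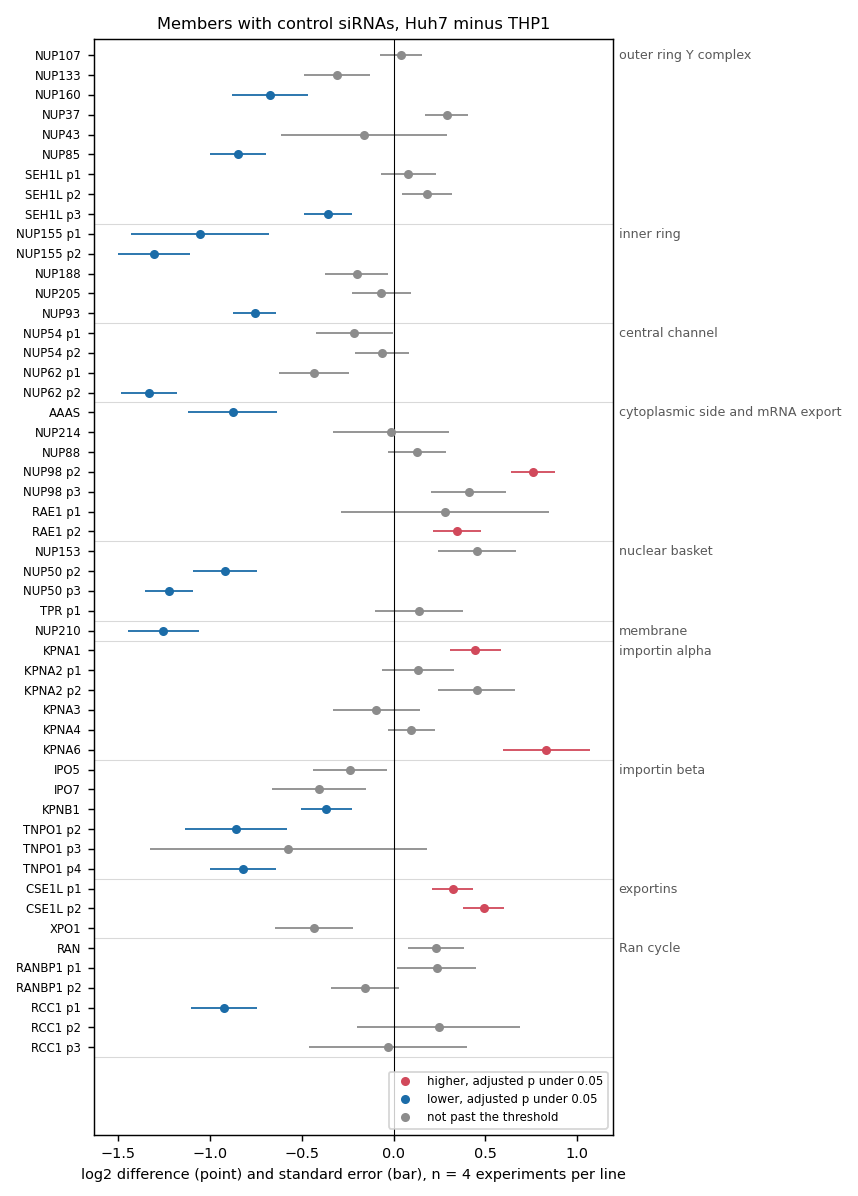
Huh7 minus THP1 on the log2 scale for 51 member probes with control siRNAs, NC1 and NC2 averaged, grouped by role, as the fitted difference (point) and its standard error (bar, n = 4 experiments per line). Called probes lie from -1.33 to -0.36 and from 0.32 to 0.83, while the widest bar is that of TNPO1 p3.

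Some member probes shifted between the 2 slides of a line by more than 1 on the log2 scale. TNPO1 p3 differed by -2.39 in Huh7 controls and by -2.14 in THP1 controls (validation minus discovery slide), while the other TNPO1 probes did not shift by more than 1. RAE1 p1 was higher on the validation slide by 1.41 in Huh7 and 1.80 in THP1, and NUP43 differed by -1.08 in Huh7 and by -1.48 in THP1. RCC1 p2 in Huh7 (1.53) and RCC1 p3 in THP1 (1.33) were higher there. In all 4 of 50 members shifted by more than 1 in each line, against 8.24% of all probes in Huh7 and 7.21% in THP1. Slide, phase and passage cannot be told apart, and the experiment term of the fit removes such shifts from the siRNA comparisons but not from the comparison of lines.

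Among 30 other pore and transport genes listed beside the members, 26 had a probe (39 probes). In Huh7, 34 probes of 25 genes were tested and 5 were called with INTG, 2 higher and 3 lower, which is 14.7% against 22.3% of all probes. NUP42, a cytoplasmic mRNA export nucleoporin, was higher at both probes, by 0.27 (adjusted p = 0.020) and 0.24 (adjusted p = 0.023). The exportin XPO4 was lower at p1 by 0.33 (adjusted p = 0.00507) and at p3 by 0.23 (adjusted p = 0.041), and the actin exportin XPO6 was lower by 0.25 (adjusted p = 0.013). In THP1 none of 35 was called (4 had an unadjusted p under 0.05 in limma), against 0.0444% of all probes. Without the dim arrays none was called either, against 0.266% of all probes. The difference between lines called 0 of 34 (4 at an unadjusted p under 0.05 in limma), against 2.6% of all probes. Without the dim arrays it also called 0 (3 at an unadjusted p under 0.05 in limma), against 4.53% of all probes. Between lines under control siRNAs 13 of 35 were called (37.1%, against 62.6% of all probes). Of these 3 were higher in Huh7 (8.57%, against 30.6% of all) and 10 lower (28.6%, against 31.9% of all). The largest difference was that of the importin IPO8, 2.49 higher in Huh7 (adjusted p = 3.31e-07), named here after its values were seen.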

How the data were processed

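Expression was measured on 48 Illumina bead arrays (48803 probes). The deposited scanner table gives, per the file headers, each probe's mean bead intensity and a detection p-value, and its values look neither background corrected nor normalized. The authors also deposited processed values, a linear intensity with column medians from 1.52 to 1.61 and 1.09 on the Huh7 slides and from -4.25 to -4.18 and -3.81 on the THP1 slides. How these were centred and normalized is not given in the sources used here. Lumi and limma are named in the submitters' processing notes.

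Background was removed by normexp, using the detection p-values and an offset of 16, after which quantile normalization over the 48 arrays and log2 followed (limma 3.58.1, R 4.3.3). The offset understates changes of dim probes. Blank probes (8) were left out. Probes detected (p under 0.01) on at least 8 of a line's 24 arrays were tested. Wells were averaged, and each line was fitted with siRNA and experiment as terms (lmFit, eBayes, Benjamini-Hochberg over all tested probes, threshold 0.05). The main contrast set INTG against the average of both controls; a joint fit gave the difference between lines, and a fit on control arrays alone the baseline. Same-numbered arrays share a passage per the series' design text, and their deviations correlated at 0.753 to 0.888 in Huh7 and 0.458 to 0.918 in THP1. Deviations of different experiments correlated at -0.801 to 0.764 in Huh7 and -0.770 to 0.571 in THP1, so the ranges overlap in part. Duplicate wells correlated at 0.921 or more. The number of arrays limits the precision.

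Genes were named from the platform annotation (28098 probes with 1 symbol, 13 with several, 20692 with none), which can be old. Members, roles and lists were chosen with earlier results of these data known. Member probes past the threshold in any comparison could be named, other members were given by value or range, as were all probes of genes whose probes disagreed, and up to 3 other pathway genes per direction. Fits were tested on simulated data. Alternatives covered the block, wells, background correction, normalization, the authors' values (under 0 set to 0, plus 16, log2), detection filter, brightness, dim arrays and each experiment left out.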

Additional observations from a re-analysis of the deposited data

Results flagged for a closer look

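For 3 member probes the test of the difference between lines passed the threshold, SEH1L p2 at -1.17, SEH1L p1 at -0.88 and RCC1 p3 at -0.50 (Huh7 minus THP1). The call of RCC1 p3 is the least stable of these, lost in 8 of 14 alternatives.

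In 6 of 100 combinations of probe and line, 1 experiment stood far from the other 3 by Dixon's criterion, where chance gives about 5. Of these, 4 are in THP1 experiment 4, whose INTG arrays are dim. KPNA3 was lowest there (-1.84), as was NUP155 p1 (-1.32, against 0.06, 0.23 and 0.29 in the others). RAN was highest there (0.34, against 0.12, 0.13 and 0.13), as was TNPO1 p3 (0.17, against -0.18, -0.15 and -0.13). In Huh7, KPNA2 p1 was lowest in experiment 3 (-0.09, against 0.37, 0.44 and 0.45) and KPNB1 in experiment 2 (-0.03, against 0.14, 0.15 and 0.15). The part of array brightness in these values was not tested.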

How the results depend on the processing

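KPNA3, SEH1L p1 and SEH1L p2 in Huh7 kept their direction and stayed past the threshold under all 13 alternatives, from -1.38 to -0.85 for KPNA3, from -1.15 to -0.80 for SEH1L p1 and from -1.18 to -0.87 for SEH1L p2. RCC1 p3 lost the call in 3 of 13, NUP188 and NUP210 in 6 each, RCC1 p1 in 7 and IPO7 in 8. None of the single probes run this way changed direction, namely the members called in Huh7, in the difference between lines or between lines under controls, SEH1L p3 in Huh7 and KPNA3 in THP1. SEH1L p2 in THP1, which was not called, was 0.12 with all arrays and -0.07 without the dim arrays, and other named probes were not run one by one. The 8 members called in Huh7 became 3 with brightness as a covariate, 3 with no replicate block, 3 with a slide block alone, 17 with each well counted on its own, and 4 to 6 with each experiment left out (4 without experiment 2 or 4, 5 without experiment 1). With no background correction the split was 5 higher and 7 lower, against 1 higher and 7 lower. The 0 members called in THP1 became 1 with brightness as a covariate, 1 with no background correction, 1 without the dim arrays, 2 with separate wells and 0 to 1 with an experiment left out (1 without experiment 4). The call of the difference between lines was lost in 8 of 14 alternatives for RCC1 p3, 3 of 14 for SEH1L p2 and 3 of 13 for SEH1L p1. KPNA3 in THP1 passed in 5 of 13 alternatives. These include the fits without the dim arrays and without experiment 4, which give the same difference by construction. For the controls in Huh7 the 0 became 1 with separate wells. For the difference between lines the 3 became 0 with no replicate block, 6 with separate wells and 0 to 2 with an experiment left out (0 without experiment 3, 1 without experiment 1 or 2, 2 without experiment 4). The 21 members called between lines became 0 with the authors' values, 5 with median scaling (0 higher and 5 lower, against 6 higher and 15 lower), 13 with slide as a random block and 14 to 17 with an experiment left out. The causes were not tested. Shares of all probes called in these fits are not given here. The counts thus do not show whether members lost or gained calls more than other probes. Wells of 1 passage are not independent, so the counts with separate wells overstate the replication. Dim probes, such as RCC1 p2, NUP43 and NUP98 p3, sit near background and their changes are understated.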
